A study of Homo sapiens with 12 samples.

Results

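The G2/M and mitosis genes are a set of 40 protein-coding genes that carry a cell from late G2 through mitosis to the separation of its daughters. They were chosen by symbol from a list that was drawn up, like the role groups, with earlier results of these data known, and all 40 were found among the 19677 genes in each count table. All 40 also passed the filter on low counts, as did 12470 genes in all. The genes were grouped by role into 9 groups: 8 of mitotic entry, 3 centrosome and spindle kinases, 4 of the spindle checkpoint, 5 of the kinetochore and centromere, 2 of the chromosomal passenger complex, 7 motors and spindle-associated proteins, 4 of anaphase and the APC/C, 5 of cytokinesis and 2 chromosome proteins.

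The measurements are RNA-seq gene counts from CAOV3, a human high-grade serous ovarian carcinoma cell line of epithelial type that the labels give as WT, in 4 groups of 3 libraries. The study asked how ovarian cancer ascites, the fluid that collects in the abdomen of patients, and the fibrate drug bezafibrate change transcription in these cells. All groups were grown in DMEM with 10% fetal bovine serum and antibiotics. The control group received DMSO, the ascites group 10% ovarian cancer ascites with DMSO for 16 h, the bezafibrate group 200 uM bezafibrate for 16 h, and the combination group both for 16 h. DMSO, the solvent, is named in the labels of the groups without the drug alone, so every comparison with the drug may include a difference in solvent, and no time is given for the control. They do not say whether the ascites came from 1 patient or was pooled, or whether replicates were separate cultures, so p-values here measure the spread between these libraries. The results are from 1 established line.

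Mitosis begins when cyclin B and CDK1 are switched on by CDC25 phosphatases and polo-like kinase. Chromosomes are then attached to the spindle by kinetochores under the watch of the spindle checkpoint, and the APC/C ubiquitin ligase triggers anaphase by marking securin and cyclin B for destruction. Transcripts of these genes rise together late in the cell cycle and are held down in resting cells by the DREAM complex, which binds CHR elements in their promoters, while NF-Y binds CCAAT boxes nearby and B-MYB and FOXM1 drive the genes in dividing cells. Fibrates are ligands of nuclear receptors of the PPAR family.

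The promoters of the set are shown first. The choice by symbol did not read them, but genes of this kind are known to carry the elements named above. An excess of these letters over all promoters is therefore no independent result. Of the 40 genes, 33 had an entry in the RefSeq promoter table (build GRCh38.p14), which holds 250 bases before and 50 bases after each annotated start. The letters searched on both strands were CCAAT. For the CHR element they were TTTGAA, or TTCGAA in its place. A match on the other strand reads ATTGG in the first case. In the second it reads TTCAAA, and the last of these motifs is its own reverse complement. The stretches printed are plus-strand genes CDK1 at chr10:60778081-60778330, ECT2 at chr3:172750476-172750681 and CCNB2 at chr15:59104896-59105077, and the minus-strand gene MKI67 at chr10:128126424-128126673, each read 5′ to 3′ on the gene's own strand and ending before the first annotated exon base. CDK1, ECT2 and CCNB2 are genes whose RNA was lower with the drug below, and MKI67 is one that was not. Capitals mark the searched letters, and in MKI67 the last run holds TTTGAA and ATTGG with a shared base.
CDK1: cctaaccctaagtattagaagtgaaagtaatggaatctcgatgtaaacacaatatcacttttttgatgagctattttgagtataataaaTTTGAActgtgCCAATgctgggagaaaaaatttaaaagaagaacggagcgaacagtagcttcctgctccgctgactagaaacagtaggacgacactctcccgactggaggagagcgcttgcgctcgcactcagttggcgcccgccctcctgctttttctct
ECT2: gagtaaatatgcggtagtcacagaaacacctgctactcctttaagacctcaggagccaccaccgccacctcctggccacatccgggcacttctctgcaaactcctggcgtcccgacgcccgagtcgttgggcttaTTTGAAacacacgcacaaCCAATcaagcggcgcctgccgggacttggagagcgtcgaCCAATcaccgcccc
CCNB2: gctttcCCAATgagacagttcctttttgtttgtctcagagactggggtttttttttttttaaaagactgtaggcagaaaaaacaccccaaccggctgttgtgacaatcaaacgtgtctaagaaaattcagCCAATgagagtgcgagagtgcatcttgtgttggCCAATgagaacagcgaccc
MKI67: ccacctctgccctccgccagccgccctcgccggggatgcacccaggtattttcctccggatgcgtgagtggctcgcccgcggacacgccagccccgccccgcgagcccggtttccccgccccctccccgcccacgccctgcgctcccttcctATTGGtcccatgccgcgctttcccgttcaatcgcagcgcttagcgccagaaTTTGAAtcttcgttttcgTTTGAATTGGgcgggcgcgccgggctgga

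CDK1 carried 1 TTTGAA, at -161 to -156 from the start, and 1 CCAAT, at -150 to -146. ECT2 carried TTTGAA at -115 to -110 and CCAAT at -97 to -93 and at -58 to -54 in the stretch shown. CCNB2 held 4 CCAAT in its window, of which the stretch shown has 3, and its TTTGAA at -29 to -24 lies past the end of that stretch. MKI67 had TTTGAA at -47 to -42 and at -29 to -24. Over the set, CCAAT was found in 24 of 33 promoters (72.7%), against 35.7% of all 27305 promoters in the table, and 15 of 33 (45.5%) held 2 or more against 11.3%. TTTGAA or TTCGAA was found in 23 of 33 (69.7%) against 16.6% of all promoters, and within 100 bases of the start in 21 of 33 (63.6%) against 7.43%. Both kinds stood together in 18 of 33 (54.5%) against 6.58%. Among the genes called lower with the drug averaged over both backgrounds, defined below, 11 of 13 promoters held TTTGAA or TTCGAA and 10 of 13 held CCAAT. Among the genes not called, the counts were 12 of 20 and 14 of 20. These are matches of letters, with no measurement of binding.

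Levels below are in CPM, a gene's counts over the scaled library size in the unit that edgeR gives. Library totals ran from 11831093 to 18762759 counts, with 14206 to 14595 genes detected, and the lowest count of any member in any library was 206, for CDC25C. The third combination library stood apart from its group, with a chi-square per degree of freedom of 4.45 and 3.15 against its 2 partners, where other pairs of 1 group gave 1.44 to 2.27. Of the markers of the labelled cell type, KRT8 (2867 to 3166 CPM), KRT18, KRT7, EPCAM and CDH1 were expressed. PAX8 stayed at 0.0793 to 1.27 CPM, and WT1 and MUC16, at no more than 0.294 and 0.202 CPM, were removed by the filter. PDK4 and FABP4, targets of PPAR, were 16.8-fold and 13.3-fold higher with the drug.

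Every member was expressed in every group. Per kb of merged exon, the highest level in control cells was that of TPX2, which activates Aurora A on the spindle, at 236 ± 2.57 CPM per kb (SD, n = 3). UBE2C, the E2 enzyme of the APC/C, followed at 145 ± 5.95 CPM per kb. CDK1, the kinase that drives entry into mitosis, stood at 119 ± 4.55 and CDC20, which activates the APC/C, at 115 ± 3.04 CPM per kb, and these neighbours did not differ beyond their spread. CCNB1, the main mitotic cyclin, and PTTG1, the securin, were level at 102 ± 1.48 and 102 ± 2.94 CPM per kb. The lowest were PLK4, the kinase that starts centriole duplication, at 10.9 ± 0.388 CPM per kb, and CDC25C, a phosphatase that activates CDK1, at 7.94 ± 0.227 CPM per kb. The set as a whole took 0.687% to 0.753% of the counts of a library.

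With bezafibrate, 8 of the 40 genes fell and none rose in the absence of ascites, and the falls were small: PRC1 fell by 5.89% and ECT2, at the other end, fell by 13.6%. They were ECT2, AURKB, CDK1, NUSAP1, BUB1B, ANLN, KIF20A and PRC1, and 4 of these are among the 5 cytokinesis genes. The role groups were drawn up with earlier results known, so this count is a description only. With ascites present, 1 of the same 5 genes was called lower. All 5 had a log2 fold change below 0 there, as did 51.2% of all genes. In a separate list of 22 other spindle and cytokinesis genes, 4 fell without ascites. By edgeR's quasi-likelihood test with Benjamini-Hochberg adjustment over 12470 genes, called at an adjusted p under 0.05, 8 of 40 (20%) were lower where 7.55% of all genes were. Among the 7749 genes with a mean no lower than that of the lowest member (CDC25C, 19.9 CPM), a comparison made after the values were seen, 8.97% were lower. No member was higher, where 10.1% of all genes were. In bulk RNA, fewer cells in G2 or mitosis and less RNA per such cell cannot be told apart.

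ECT2 (ENSG00000114346.14, chr3:172750726-172829265), the exchange factor that activates RhoA at the cleavage site, had 236, 250 and 250 CPM in the control libraries and 216, 210 and 209 CPM with bezafibrate. With ascites it had 239, 239 and 246 CPM, and with the combination 208, 204 and 228 CPM. All 6 libraries with the drug lay below all 6 without it. Its log2 fold change was -0.21 ± 0.04 (SE) for bezafibrate against control, with an adjusted p of 2.43e-05 by edgeR. For the combination against ascites it was -0.18 ± 0.04, with an adjusted p of 3.37e-04 by edgeR. Its log2 fold change kept its call when any 1 of the 12 libraries was left out, in both comparisons.

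AURKB (ENSG00000178999.13, Aurora kinase B), the kinase of the chromosomal passenger complex that corrects faulty kinetochore attachments and is needed for cytokinesis, had 131, 130 and 129 CPM in control cells. It had 122, 130 and 121 CPM with ascites. The values were 112, 116 and 111 CPM with bezafibrate, and 110, 105 and 102 CPM with the combination. All drug-treated libraries lay below all others, and each combination library lay below each bezafibrate library. The latter difference was not called, as the lowest edgeR adjusted p of any member in that comparison was 0.952. Combination libraries all lay below bezafibrate libraries for 4 of 40 members and for 602 of 12470 genes. The log2 fold change was -0.21 ± 0.04 (SE) for bezafibrate against control (edgeR adjusted p = 1.28e-04) and -0.23 ± 0.04 for the combination against ascites (edgeR adjusted p = 3.49e-05). In the combination against control, AURKB fell by 18.7%, the largest change of a member in any of the 8 comparisons. Its partner BIRC5 (survivin) had means of 133 CPM in control cells and 125 CPM with bezafibrate, and its groups did not overlap in that comparison, but the adjusted p was 0.105 by edgeR.

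CDK1 (ENSG00000170312.17, chr10:60778331-60794852) had 238, 253 and 236 CPM in the control libraries and 226, 221 and 217 CPM with bezafibrate. The ascites libraries held 240, 240 and 244 CPM and the combination libraries 218, 225 and 224 CPM. The libraries with and without the drug again formed separate ranges. The log2 fold change was -0.13 ± 0.03 (SE) without ascites, with an edgeR adjusted p of 0.0031, and -0.12 ± 0.03 with ascites, with an edgeR adjusted p of 0.00973. Without the second control library, the highest of its group, the change without ascites was -0.10 and the edgeR adjusted p 0.0655.

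Of the other cytokinesis genes, ANLN, the scaffold anillin of the contractile ring, stood at 404, 416 and 415 CPM in control libraries and at 381, 382 and 369 CPM with bezafibrate. Its log2 fold change was -0.13 ± 0.03 (SE), with an adjusted p of 0.0035 by edgeR. With ascites it had 410, 398 and 404 CPM, and with the combination 364, 394 and 400 CPM. These last groups overlapped, and the change of -0.07 ± 0.03 was not called (edgeR adjusted p = 0.155). KIF20A, a kinesin of the central spindle that brings the passenger complex there, had 199, 210 and 207 CPM in control cells against 187, 192 and 188 CPM with bezafibrate, a change of -0.12 ± 0.03 (edgeR adjusted p = 0.0136). Its call without ascites was kept in 8 of 12 fits that left out 1 library. Its ascites libraries were at 197, 186 and 199 CPM and its combination libraries at 182, 184 and 183 CPM (edgeR adjusted p = 0.0861). PRC1, which bundles the microtubules of the central spindle, read 231, 234 and 235 CPM in the control libraries and 220, 220 and 219 CPM with bezafibrate. Its ascites libraries were at 224, 230 and 229 CPM and its combination libraries at 213, 218 and 218 CPM. The groups did not overlap in either comparison, yet the change without ascites of -0.09 ± 0.03 was close to the threshold (edgeR adjusted p = 0.0445). Its call was kept in 2 of 12 fits that left out 1 library, and was lost with DESeq2, the replicate block and no filter. KIF23, the kinesin of centralspindlin, was the fifth gene of the group, with means of 137, 136, 132 and 129 CPM in the control, ascites, bezafibrate and combination groups, and was not called.

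NUSAP1, which binds and stabilises spindle microtubules, stood at 193, 189 and 187 CPM in control libraries and at 170, 173 and 178 CPM with bezafibrate. Its log2 fold change was -0.13 ± 0.04 (SE), with an adjusted p of 0.0203 by edgeR. It had 186, 182 and 185 CPM with ascites and 161, 165 and 187 CPM with the combination, where the third library reached the level of cells without the drug. BUB1B, the checkpoint protein BubR1, stood at 197, 205 and 203 CPM in control libraries and at 189, 187 and 178 CPM with bezafibrate, a change of -0.13 ± 0.04 (edgeR adjusted p = 0.0121). Its values were 196, 191 and 198 CPM with ascites and 179, 190 and 198 CPM with the combination, and these overlapped. The number of genes called without ascites fell to 3 (ANLN, AURKB and ECT2) without the second control library. It was 5 without the third control library, and likewise without the first or the third bezafibrate library. The shares of all genes called in those fits are not given here. The annotation (GENCODE 29) places exons of NUSAP1, PRC1 and BUB1B over exons of other genes on the same strand and exons of ANLN and KIF20A over genes of the opposite strand. The neighbour that shares most covers 1787 of 2454 exon bases of NUSAP1 and 2716 of 4168 of PRC1. For BUB1B it covers 172 of 3767, for ANLN 78 of 4787 and for KIF20A 68 of 3201. How reads shared by such genes were counted is not given in the sources used here, so these 5 values are less certain. The same holds for PLK1, CCNA2, KIF2C, KIF23, HMMR and CDC25C, which also share exon bases with a neighbour, from 113 in HMMR to 276 in CDC25C.

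**Figure D1:**
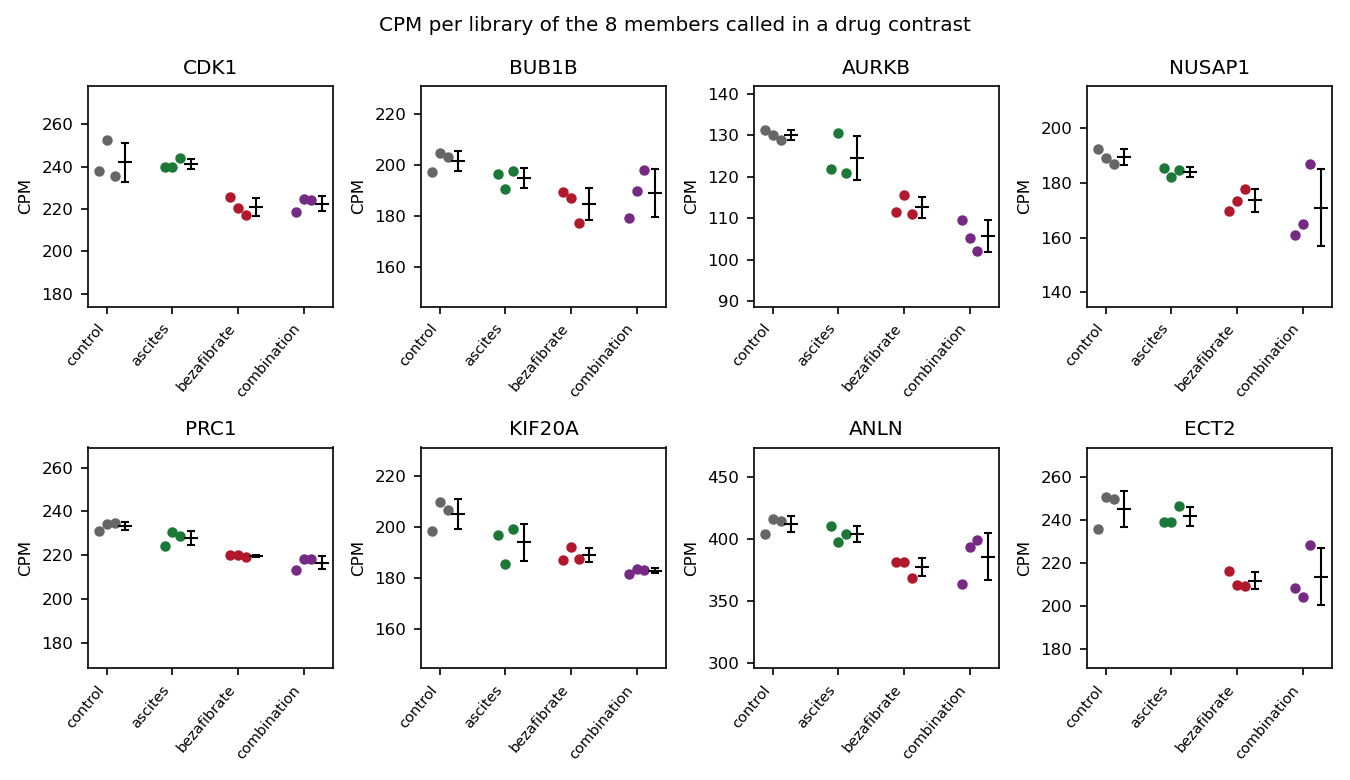
CPM (vertical axis, which does not start at 0) of the 8 members called in bezafibrate against control, for each library (points) of the 4 groups (horizontal axis), with mean and SD (bars, n = 3). For ECT2, AURKB, CDK1 and PRC1 the drug-treated libraries lie below all others. For NUSAP1, ANLN and BUB1B a combination library reaches the range of the ascites group.

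The other 32 genes were not called without ascites, and most leaned down. Of the 40, 34 had a log2 fold change below 0, or 85%, against 51.5% of all genes tested, and the median was -0.06 against 0.00 for all genes. The groups did not overlap for 18 members in the lower direction (45%), against 16.3% of all genes, and for 2 in the higher direction, CCNA2 and CDC25B, where the share of all genes was 17.2%. By role, the median was -0.15 for the 2 passenger genes, -0.12 for cytokinesis, -0.07 for motors and spindle-associated proteins, -0.06 for centrosome and spindle kinases and for chromosome proteins, -0.05 for kinetochore and centromere, -0.04 for mitotic entry and for the checkpoint, and -0.02 for anaphase and the APC/C. The highest log2 fold change was that of NDC80, which links kinetochores to microtubules, at 69.3, 77.3 and 74.6 CPM in control libraries and at 81.4, 80.6 and 77.2 CPM with bezafibrate. The groups overlapped by a small margin and the change of 0.11 ± 0.05 was not called (edgeR adjusted p = 0.101).

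With ascites present, 3 of the 40 genes, AURKB, ECT2 and CDK1, were lower with the drug and none was called higher. This share of 7.5% was near the 7.29% of all genes called lower in the combination against ascites. It was below the 8.71% of the 7749 genes at or above the lowest member's level, and 10.5% of all genes were called higher. Of the 40 genes, 27 (67.5%) had a log2 fold change below 0, against 51.2% of all genes, and the median was -0.05. The groups did not overlap for 10 members in the lower direction (25%), against 14.5% of all genes, and for 0 in the higher direction, against 16%. The count depended on scaling and on 1 library. It was 8 (20%) with upper-quartile scaling, where 9.28% of all genes were called lower. With total counts alone it was 7 (17.5%), where 9.19% of all genes were. Without the third combination library, which stood apart, it was 6: AURKB, ECT2, CDK1, NUSAP1, ANLN and PLK4. The share of all genes called lower in that fit is not given here, so the 6 cannot be set against it.

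The comparisons without and with ascites share no library. Their log2 fold changes had the same sign for 33 of the 40 members (82.5%), against 73% of all genes tested, and 27 were below 0 in both. Pearson's r across the 40 genes was 0.79, against 0.68 across all genes. The points share the 12 libraries' common scaling and the cell line, and genes are not independent replicates. The difference of the drug response between cells without and with ascites was tested directly: the edgeR interaction test called 0 of 40, with 0 at an unadjusted p under 0.05, and DESeq2 and limma voom also called 0. Over all genes the interaction called 0%, and 3.57% had an unadjusted p under 0.05. The 95% intervals of the interaction lay within a 1.5-fold difference for all 40 members and within 1.2-fold for 35.

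**Figure D2:**
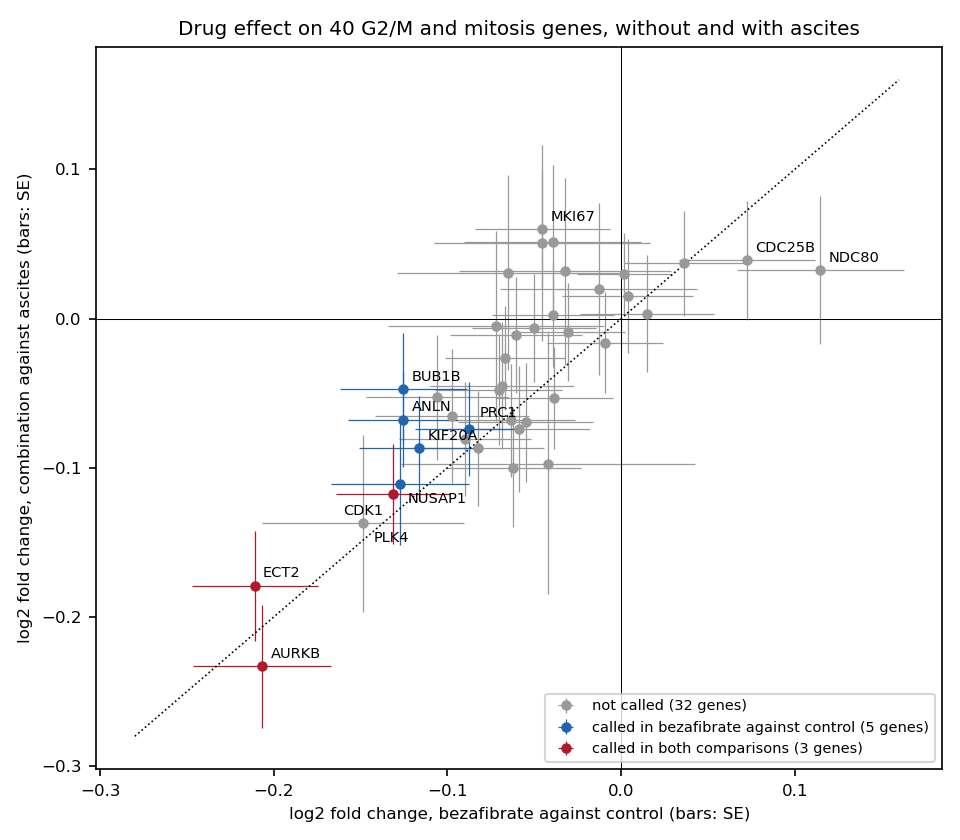
Log2 fold change of each of the 40 genes in bezafibrate against control (horizontal) and in the combination against ascites (vertical), with SE bars; the dotted line marks equal values. AURKB, ECT2 and CDK1, called in both, lie at the lower left, and 27 genes lie below 0 on both axes.

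Averaged over both backgrounds, 6 libraries with the drug against 6 without, 14 of the 40 genes fell and none rose. This comparison is built from the previous ones and is no further evidence of direction. The 14 genes (35%) stand against 13.2% of all genes called lower and 15.5% of the 7749 genes at or above the lowest member's level. No member was called higher, where 15% of all genes were. At the ends of the range, KIF4A, a chromokinesin, fell by 5.36% and AURKB fell by 14.1%. Of the 40 genes, 30 lay below 0, against 51.7% of all genes. For 6 members (15%), AURKB, ECT2, CDK1, PRC1, ESPL1 and KIF2C, all drug-treated libraries lay below all others, against 6.32% of all genes, and for none above, against 9.01%. Of the mitotic entry genes CDK1, PLK1 and CCNB2 fell, of the centrosome kinases PLK4, of the checkpoint genes BUB1B, of the passenger genes AURKB and BIRC5, of the spindle group NUSAP1, KIF4A and HMMR, and of the cytokinesis genes ECT2, ANLN, KIF20A and PRC1. None of the 5 kinetochore and centromere genes, the 4 anaphase and APC/C genes or the 2 chromosome proteins were called.

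PLK4, in the centrosome group, stood at 41.9, 45.0 and 42.9 CPM in control libraries and at 45.5, 42.9 and 45.0 CPM with ascites. With bezafibrate it had 39.4, 40.9 and 36.5 CPM and with the combination 40.1, 38.5 and 42.9 CPM. Only 1 combination library reached the range of the untreated cells, and the averaged change was -0.14 ± 0.04 (SE; edgeR adjusted p = 0.00797). PLK1, the polo-like kinase of mitotic entry, had group means of 172, 170, 162 and 160 CPM in the control, ascites, bezafibrate and combination groups and an averaged change of -0.08 ± 0.03 (edgeR adjusted p = 0.0155). CCNB2, a mitotic cyclin, had means of 142, 143, 135 and 133 CPM in the same order (averaged change -0.08 ± 0.03, edgeR adjusted p = 0.0263). HMMR, a hyaluronan receptor that also binds spindle microtubules, was at the edge of the threshold (edgeR adjusted p = 0.0498). It kept its call in 2 of 12 fits without 1 library, and KIF4A kept its own in 4 of 12. Both lost the call with DESeq2, and HMMR also with limma voom and the replicate block. CCNB2 kept its call in 8 of 12.

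The 26 genes not called in the averaged comparison had changes between -0.07 and 0.07. FOXM1, the transcription factor of the G2/M programme, had means of 218, 220, 214 and 219 CPM in the control, ascites, bezafibrate and combination groups, and its averaged change was -0.02 ± 0.02. CDC20, UBE2C and PTTG1 had averaged changes of -0.02, 0.01 and 0.01. ESPL1, the protease separase that cuts cohesin at anaphase, had 6 drug-treated libraries all below the other 6, with a change of -0.07 ± 0.03 (edgeR adjusted p = 0.0901). KIF2C, a kinesin that depolymerises microtubules, likewise had ranges that did not overlap, with a change of -0.07 ± 0.03 (edgeR adjusted p = 0.0605). For all 40 genes the 95% interval of the averaged change lay within 1.5-fold, and for 39 within 1.2-fold, AURKB being the exception.

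**Figure D3:**
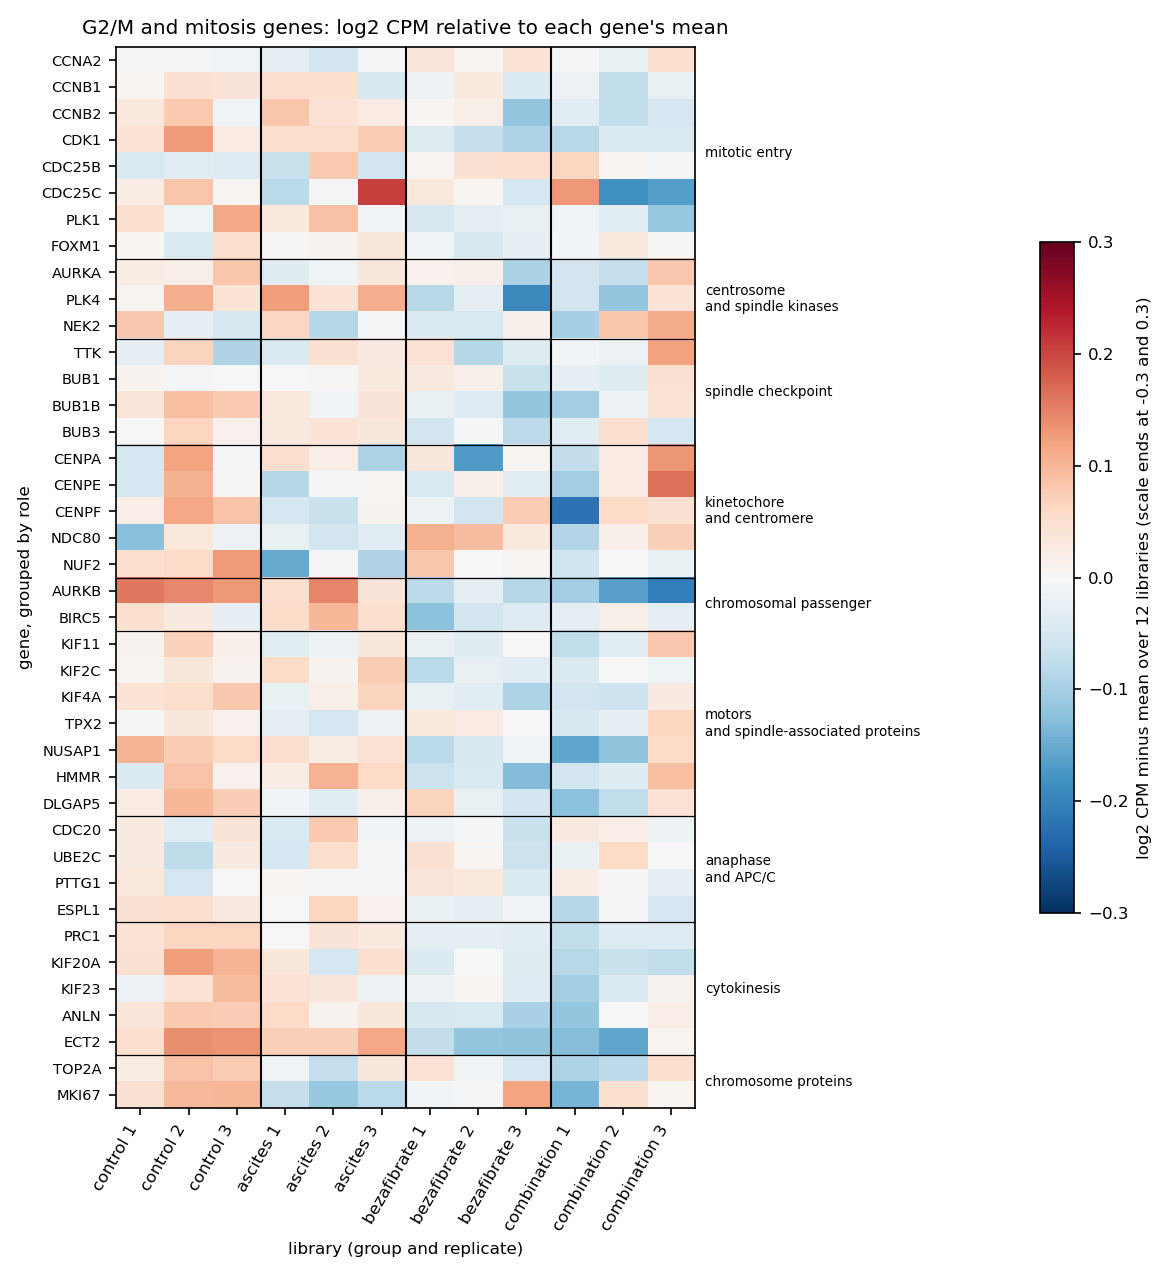
Log2 CPM of the 40 genes (rows, grouped by role) in the 12 libraries (columns), each relative to the gene's mean over all libraries; red is higher and blue lower, with the scale ending at -0.3 and 0.3. AURKB and CDK1 are red in the 6 libraries without the drug and blue in the 6 with it, and the third combination library is red for many genes that are blue in its partners.

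**Figure D4:**
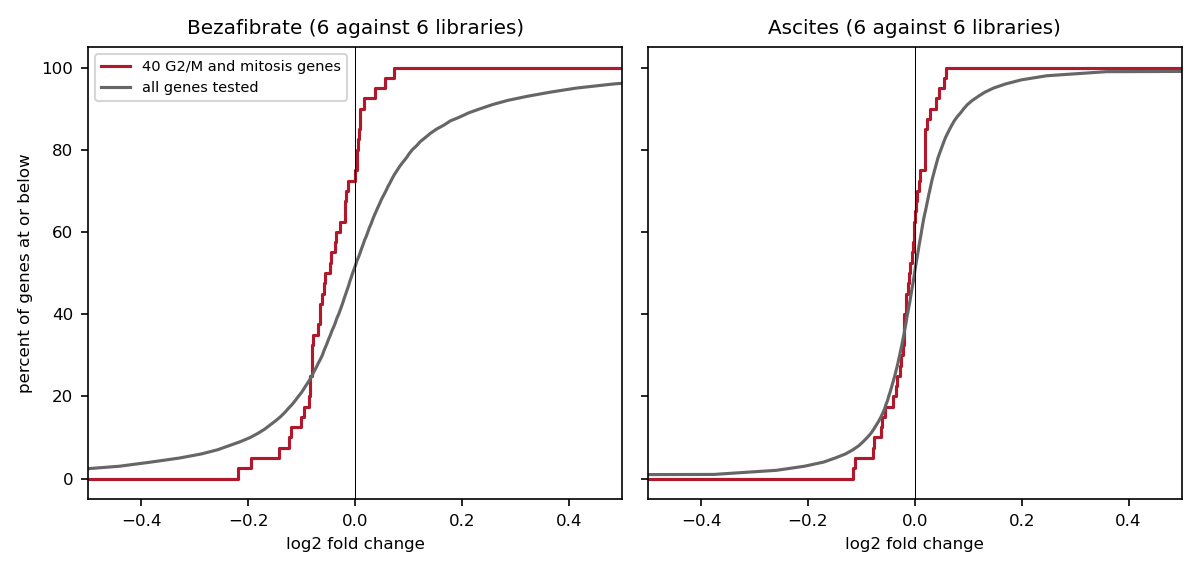
Cumulative share of genes (vertical, percent) at or below each log2 fold change (horizontal, shown from -0.5 to 0.5) for the 40 G2/M and mitosis genes and the 12470 genes tested, for the averaged drug (left) and ascites (right) comparisons. With the drug 30 of 40 members lie below 0.

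Ascites called none of the members. In ascites against control edgeR called 0 of 40, where 0.0882% of all genes were called, and DESeq2 and limma voom also called 0. At an unadjusted p under 0.05 there were 4 members (MKI67, NUF2, KIF20A and TOP2A), all lower, where 6.01% of all genes passed. The sign was negative for 26 of 40, against 51.1% of all genes, and 7 members (17.5%) had ascites libraries all below the control libraries, against 7.06% of all genes, and none all above, against 5.64%. Those below were CENPF, DLGAP5, MKI67, NUF2, NUSAP1, PRC1 and TPX2. In the combination against bezafibrate edgeR, DESeq2 and limma voom each called 0 members, where edgeR called 0.128% of all genes, and 1 member, AURKB, had an unadjusted p under 0.05, as did 4.79% of all genes. In that comparison 20 of 40 members lay below 0, against 50.4% of all genes. All 40 intervals lay within 1.2-fold in the combination against bezafibrate and 39 in ascites against control.

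MKI67 (ENSG00000148773.14), the coat protein of mitotic chromosomes used as a marker of dividing cells, had the largest change with ascites and was singled out after its values were seen. Its control libraries read 423, 439 and 439 CPM and its ascites libraries 390, 378 and 388 CPM. With the drug it had 407, 408 and 445 CPM, and with both 372, 424 and 412 CPM. Control and ascites libraries did not overlap, but those with the drug did. The log2 fold change was -0.17 ± 0.04 (SE) for ascites against control (edgeR adjusted p = 0.172). Averaged over both backgrounds it was -0.12 ± 0.03 (edgeR adjusted p = 0.0798), and edgeR called 0 of 40 members, where 0.281% of all genes were called. In that averaged comparison 6 members had an unadjusted p under 0.05, where 6.97% of all genes did. DESeq2 called 1 member, MKI67, and limma voom 0. MKI67 was also called in this averaged comparison without the second combination library, and TOP2A, the decatenating topoisomerase, without the third. MKI67 passed in ascites against control without the first combination library. It was not called in the other 11 of 12 fits without 1 library, and its edgeR adjusted p ran from 0.00378 to 0.904. In the averaged comparison the edgeR adjusted p ran from 0.0147 to 0.305 over such fits. With the drug, MKI67 had an averaged change of 0.01 ± 0.03.

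With both treatments against neither, 9 of the 40 genes fell and none rose (22.5%, against 7.96% of all genes called lower and 10.3% called higher). They were AURKB, ECT2, KIF20A, NUSAP1, CDK1, DLGAP5, PRC1, TOP2A and ANLN. This comparison uses the control libraries of the first one, so the agreement of their genes is no separate result. KIF20A, with a change of -0.17 ± 0.04 (SE; edgeR adjusted p = 4.83e-04), had 199, 210 and 207 CPM against 182, 184 and 183 CPM. DLGAP5, a spindle assembly protein, had means of 139 and 128 CPM (edgeR adjusted p = 0.0457), and TOP2A of 481 and 448 CPM (edgeR adjusted p = 0.0382). DLGAP5 kept its call in 4 and TOP2A in 6 of 12 fits without 1 library. Both lost it with DESeq2 and with only the 2 groups compared, and DLGAP5 also with limma voom and the replicate block. The count was 12 without the third combination library and 5 without the third control library or the first combination library. The shares of all genes called in those fits are not given here.

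As a single level per library, the mean of the 40 log2 CPM values, each centred on its gene's mean, was 0.04 ± 0.02 (SD, n = 3) in control cells, 0.01 ± 0.01 with ascites, -0.02 ± 0.01 with bezafibrate and -0.03 ± 0.04 with the combination. The 3 bezafibrate libraries lay below all 6 libraries without the drug. The combination libraries were at -0.06, -0.03 and 0.01, and the third lay within the ascites range of 0.00 to 0.02. Of the 40 genes, 36 were below their own mean in the first combination library and 16 in the third.

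**Figure D5:**
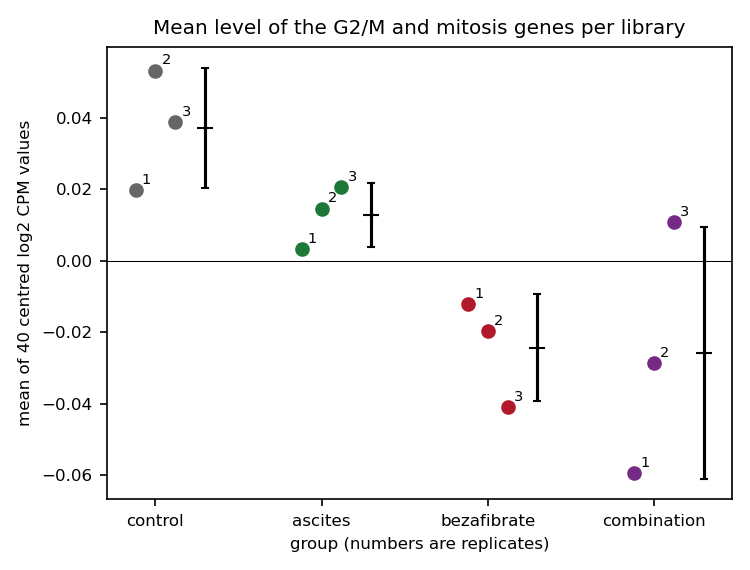
Mean of the 40 centred log2 CPM values (vertical axis) in each library (points, numbered by replicate) of the 4 groups, with group mean and SD (bars, n = 3). The control group has the highest mean, though its first library lies at about the level of the third ascites library. All bezafibrate libraries lie below 0, and the combination libraries spread from -0.06 to 0.01.

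Genes around the set were counted in lists of the same pathway in the averaged drug comparison, by the same edgeR test, in which 13.2% of all genes were called lower and 15% higher. Of 22 other spindle and cytokinesis genes 9 fell and none rose, among them KIF18B, a kinesin that limits microtubule growth, at -0.26 and PSRC1 at -0.23. Of 30 other kinetochore and checkpoint genes 9 fell and 1 rose: CENPI and SPC24 changed by -0.19 each, and SGO2, which protects centromeric cohesin, by 0.12. Of 19 condensin and cohesin genes 4 fell, with NCAPH at -0.11, and 1 rose, WAPL, the cohesin release factor, at 0.07. Of 16 mitotic entry and G2 checkpoint genes 4 fell and none rose, with PKMYT1, an inhibitory kinase of CDK1, at -0.16. None of 18 APC/C subunits and regulators was called. Of 30 DNA replication and S-phase genes 15 fell and 2 rose: MCM2 and MCM3, subunits of the replicative helicase, changed by -0.16 each, GINS3 by 0.20 and TYMS by 0.08. The calls of SGO2 and WAPL were weak: SGO2 kept its call in 4 and WAPL in 6 of 12 fits without 1 library, and both lost it with upper-quartile scaling, with total counts alone and with DESeq2. The share called lower was not highest in the G2/M and mitosis genes among these lists.

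Of the regulators upstream of the set, CDKN1A, the CDK inhibitor p21, stood at 12.95, 12.42 and 11.1 CPM in control libraries and at 27.4, 26.4 and 29.5 CPM with bezafibrate. With ascites it stood at 10.7, 12.2 and 10.6 CPM and with the combination at 27.6, 20.2 and 24.3 CPM. The drug-treated libraries were all higher, and the averaged log2 fold change was 1.15 ± 0.07 (SE; edgeR adjusted p = 2.22e-16). Of the 18 tested genes in that list of CDK inhibitors and p53 targets, 3 rose and 4 fell, with GADD45A at 0.31, PLK2 at -0.85 and CDKN2A at -0.26. MYBL2, or B-MYB, stood at 399, 394 and 395 CPM in control libraries and at 466, 486 and 488 CPM with bezafibrate, and an averaged change of 0.28 ± 0.02 (edgeR adjusted p = 5.78e-14). Of 18 MuvB, MYB, E2F and NF-Y regulators 3 rose and 9 fell, with RBL2 (p130 of the DREAM complex) at 0.12, MYBL1 at -0.31 and TFDP2 at -0.35. Of 13 tested G1 and G1/S regulators 2 rose and 4 fell: E2F2 at 0.73 and CCND3 at 0.28, against SKP2 at -0.16 and CCND1 at -0.13 among the falls. The shares that rose in these lists, 3 of 18, 3 of 18 and 2 of 13, lay near the 15% of all genes called higher, and 13.2% of all genes were called lower. RBL2 kept its call in 8 of 12 fits without 1 library.

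Markers of other cells that ascites or a culture could hold were read beside these results. Of 8 leukocyte markers 5 (PTPRC, CD3E, TYROBP, S100A8 and S100A9) were at 0 in every library. The summed level of the 8 was 74.4 to 77.9 CPM in control, 75.5 to 84.2 CPM in ascites, 92.3 to 96.9 CPM in bezafibrate and 93.8 to 101 CPM in combination libraries, of which CD68 made up 70.8 to 98.1 CPM over all libraries. The 5 fibroblast markers summed to 231 to 244 CPM in control, 229 to 236 CPM in ascites, 187 to 199 CPM in bezafibrate and 184 to 199 CPM in combination libraries. LUM had 153 to 185 CPM over all libraries, and DCN no more than 0.0849 CPM. In the control, ascites, bezafibrate and combination groups, PDGFRA had means of 43.18, 43.66, 21.55 and 22.33 CPM. COL1A1 had 6.228, 5.657, 3.895 and 3.464 CPM and COL3A1 3.896, 5.061, 2.357 and 2.55 CPM in the same order. The 3 mesothelial markers summed to 0.783 to 2.46 CPM and the 6 of erythrocytes and platelets to 0.543 to 1.41 CPM. The part of these levels in the results was not tested.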

How the data were processed

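RNA of CAOV3 cells was read as gene counts in 12 libraries, 3 per group. Each library has a file of gene counts, all whole numbers, as deposited by the authors. The submitters' processing notes name Trimmomatic 0.39, STAR 2.7.9a, RSEM 1.3.3 and DESeq2 1.28.1 and the build GRCh38, without their order. RSEM gives estimated counts, so the deposited counts may be rounded estimates. The annotation and the strand setting are not given in the sources used here.

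Counts were tested with edgeR 4.0.16 (R 4.3.3): TMM scaling, filterByExpr (minimum count 10, minimum total 15; 12470 of 19677 genes kept), 1 mean per group over all 12 libraries, the quasi-likelihood test and Benjamini-Hochberg adjustment over all genes tested, called under 0.05. Intervals (95%) use the standard error with 8 residual degrees of freedom. The procedure was also run on simulated data with fewer changed genes than the drug comparisons called here. That run does not test how scaling moved the calls. CPM is scaled by TMM. DESeq2 1.42.0 and limma voom (limma 3.58.1), other scalings, no filter, a threshold of 0.01, a replicate block, fits on the 2 groups compared and leaving out each library were alternatives. Totals of 11831093 to 18762759 counts gave a common biological coefficient of variation of 3.06%.

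Genes named in full are members called in either drug comparison without or with ascites, or in an ascites comparison. No member was called in the latter. MKI67, NDC80 and PLK4 fall outside this rule and are given by library because of their values, which were seen first. From each other list, at most the 2 called genes with the largest rise and the 2 with the largest fall in the averaged drug comparison were named. The members, roles, lists and tests were chosen with earlier results of these data known. Exon lengths and overlaps came from GENCODE 29, promoters and gene positions from RefSeq (GRCh38.p14).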

Additional observations from a re-analysis of the deposited data

How the results depend on the processing

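No called result changed sign under any alternative. The members' medians that were near 0 did cross it: in the combination against bezafibrate the median log2 fold change of -0.003 became 0.022 without the first combination library, and in the interaction 0.022 became -0.001 without the third. Of 64 tested results for named genes, 43 kept the same call in every fit at a threshold of 0.05, and ECT2 and AURKB kept theirs in both drug comparisons under all of them. The number of members called changed by more than 1.5 times as follows, and the cause was not tested. At an adjusted p under 0.01, 4 members were called in bezafibrate against control, 5 in the combination against control and 8 in the averaged drug comparison, since the threshold is stricter. In the combination against ascites, upper-quartile scaling called 8 and total counts alone 7, where 9.28% and 9.19% of all genes were called lower. In ascites against control, 1 member, MKI67, was called with no filter and 1 with only the 2 groups compared in the fit. In the averaged ascites comparison, 1 member (MKI67) was called with no filter, 1 with DESeq2 and 1 with the replicate block. Apart from the fits with other scalings, the shares of all genes called are not given here. Without them, these counts show only how the calls of members moved.

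Leaving out 1 library at a time gave 3 to 9 members in bezafibrate against control, 3 to 6 in the combination against ascites, 0 to 1 in ascites against control, 0 to 0 in the combination against bezafibrate, 5 to 12 in the combination against control, 11 to 17 in the averaged drug comparison, 0 to 1 in the averaged ascites comparison and 0 to 0 in the interaction. The highest counts in the 4 comparisons of drug against no drug came without the third combination library. The shares of all genes called in these fits are not given here, so the counts show only how the calls of members moved.

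Scaling moved the split of all calls. In the averaged drug comparison the lower share was 46.8% of calls with TMM and 56.7% with upper-quartile scaling. Upper-quartile scaling called 20 members (50%), where 16.8% of all genes were called lower. It shifted the log2 fold changes of all genes by a median of -0.018 from TMM. The members' median with TMM was -0.052. The members called were all lower under every scaling.

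No deviation shared by libraries of equal replicate number was seen. In 18 pairs of equal number from different groups, the correlation of deviations from the group means ran from -0.135 to 0.061. The median was 0.002, against 0.007 for pairs of other numbers. Among those other pairs the highest value was 0.179, for the first bezafibrate and the third combination library. These values do not settle whether libraries of equal number were made together. With the replicate number as a block, 7, 3, 0, 0, 9, 13, 1 and 0 members were called in bezafibrate against control, combination against ascites, ascites against control, combination against bezafibrate, combination against control, the averaged drug and ascites comparisons and the interaction. The shares of all genes called with this block are not given here, so these counts show only how the calls of members moved. Depth limits the least expressed member, CDC25C, whose interval reached 0.195 (log2) to either side in bezafibrate against control, against a median of 0.088. Searching only the 250 bases before the start found CCAAT in 24 and TTTGAA or TTCGAA in 17 of the 33 member promoters.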
